A study of Mus musculus with 18 samples.

Results

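Both PLC vectors were pooled and compared with the blank vector. The 12 hearts labelled rAAV6-PLCβ1a (6) or rAAV6-PLCβ1b (6) were set against the 6 hearts labelled rAAV6-blank, and these are all 18 of the 18 hearts in the series. The comparison asks what hearts given either splice variant of PLCβ1 share against hearts given the same virus without a protein. All mice were male C57BL/6, were injected intravenously at 8 weeks of age and were 17 weeks old when the hearts were taken, 9 weeks after injection. The PLC vectors carried FLAG-tagged PLCβ1a or PLCβ1b. The blank vector held a promoter and made no protein, the promoter is not named in the methods, and no heart without virus was sequenced. On the tissue the sources differ: left ventricle in the methods, biventricle in the labels. Mouse numbers (26 to 36 for blank, 4 to 21 for PLC) and the order of the libraries both follow the groups, so order and vector cannot be told apart.

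Phospholipase Cβ1 acts downstream of receptors coupled to Gq. It cleaves a membrane phosphoinositide into inositol trisphosphate, which releases calcium from internal stores, and diacylglycerol, which activates protein kinase C. Its a and b variants share the catalytic core and differ in the carboxyl-terminal tail. Ventricular tissue holds cardiomyocytes together with endothelial cells, fibroblasts, pericytes, smooth muscle cells and macrophages, and RNA from whole tissue mixes them all.

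Total counts ran from 13354157 to 21470365 in the 6 blank hearts and from 13246339 to 24155465 in the 12 PLC hearts. Genes of the mitochondrial genome took most of them, 67.8 to 70.3% in blank hearts and 67.1 to 71.9% in PLC hearts, ranges that overlap (exact permutation test, two-sided, p = 0.758). After a filter on low counts 12281 genes were tested, and a gene was called at a false discovery rate (FDR) below 0.1 in edgeR's quasi-likelihood test with Benjamini-Hochberg adjustment over all of them. Blank heart 30 stood apart from the other 5 blank hearts in 7 of the genes named here, being lowest in 2810055G20Rik and highest in Zbtb16, Herpud1, Ets1, Ptprc, Ccna2 and Pik3r1. Without it the log2 fold change of Ets1, an endothelial transcription factor, went from 0.17 to 0.23 (FDR from 0.2365 to 0.06459), that of Ptprc from 0.11 to 0.21, that of Ccna2 from 0.64 to 0.93 and that of Pik3r1 from -0.2 to -0.14, the last 3 not called either way.

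Against blank, 24 of the 12281 genes were called in the pooled PLC hearts (0.195%), 15 higher (0.122%) and 9 lower (0.0733%). Other tools and settings called 55 (DESeq2), 68 (edgeR's exact test), 100 (1 surrogate variable), 13 (exon length trend removed) and 6 (limma on log2 FPKM, 1 higher and 5 lower). Before adjustment, 1152 genes had p below 0.05 (9.38%), 565 of them higher (4.6%) and 587 lower (4.78%). Counts at an unadjusted p under 0.05 within lists are to be read beside that 9.38%. Plcb1 itself changed most among the called genes. The other 23 differed by 1.14-fold to 1.62-fold, with a median of 1.27-fold. Among those that rose were Cacna1c (a calcium channel), Irx3 and Prox1 (cardiac transcription factors) and Cecr2 (chromatin). Among those that fell were Chd6 (chromatin), Cish (cytokine feedback), Herpud1 (unfolded protein response) and Timp4 (a matrix inhibitor). These are single genes and stand for no group. No test of enrichment was run. In 8 genes (0.0651% of those tested) no PLC heart overlapped any blank heart, 5 with all 12 PLC hearts above and 3 with all 12 below. With upper-quartile scaling this count was 5 and without scaling factors 4, so statements of no overlap on single genes hold for TMM-scaled CPM. The number of called genes, 24 as reported, moved by over 1.5 times in either direction when some single hearts were left out. It was 9 without blank heart 30 (7 of them among the 24), 10 without blank heart 34 and 15 without blank heart 36. It was 11 without PLCβ1a heart 11, and 11, 15, 55 and 13 without PLCβ1b hearts 4, 10, 16 and 17. Without blank heart 32 it was 35.

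Plcb1, the gene that the vectors carry, came first. Its locus is chr2:134786164-135475258 on the + strand (mm10, as are all gene positions here). In TMM-scaled CPM it lay between 5.43 and 6.89 in the blank hearts (median 6.22), between 17.8 and 29.3 in PLCβ1a hearts (median 22.0) and between 23.2 and 70.0 in PLCβ1b hearts (median 46.2). Every PLC heart was above every blank heart, while the PLCβ1a and PLCβ1b hearts overlapped. The pooled log2 fold change was 2.36 ± 0.19 (SE, FDR = 1.264e-08), or 5.135-fold. Separately the log2 fold change was 1.82 ± 0.21 for PLCβ1a and 2.9 ± 0.2 for PLCβ1b, and PLCβ1b exceeded PLCβ1a by 1.09 ± 0.17 (FDR = 0.009185). That was the 1 gene of 12281 called between the vectors (0.00814%), and robust edgeR settings called 0. Counts per gene cannot separate vector transcripts from endogenous Plcb1, nor a from b.

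**Figure D1:**
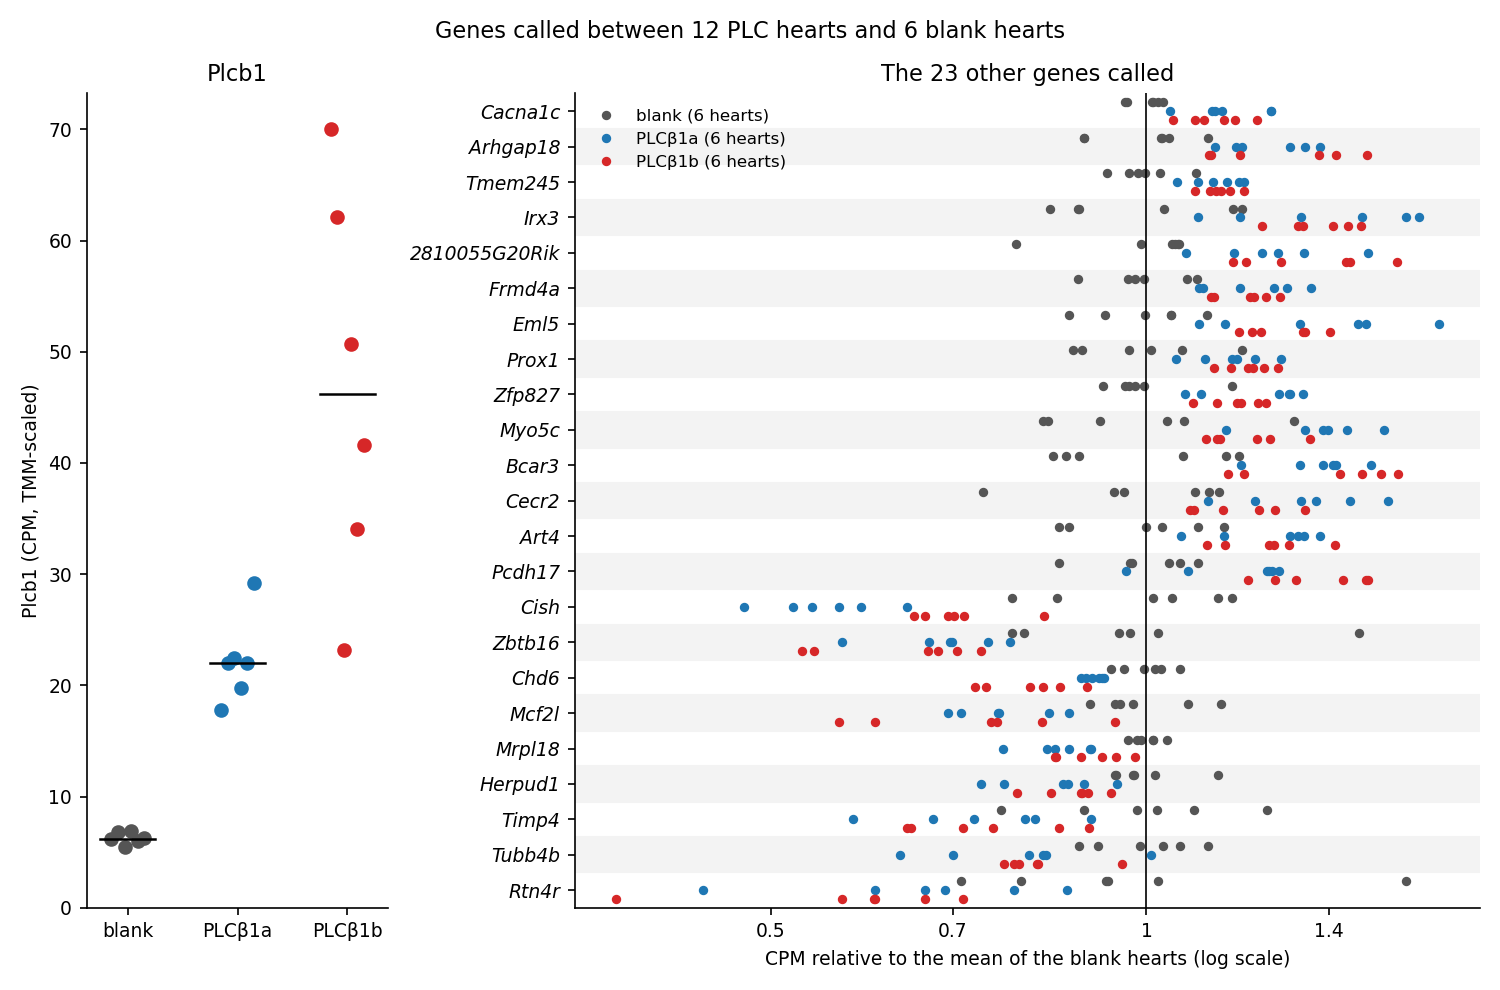
CPM of Plcb1 in each heart, with bars at the group medians (left), and CPM of the 23 other called genes in each heart divided by the mean of the 6 blank hearts, on a log scale (right). Plcb1 separates all 12 PLC hearts from all 6 blank hearts, whereas most other genes differ by less than 1.5-fold and in most of them some PLC hearts lie within the blank range.

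Among genes of ion transport, Cacna1c rose. It encodes the pore-forming subunit of the L-type calcium channel that carries calcium into cardiomyocytes at each beat. From its locus at chr6:118592296-119196409 (- strand) it gave 151 to 162 CPM in blank hearts (median 158.5) and 164 to 197 in PLC hearts (median 179.2). No PLC heart fell within the blank range, and the log2 fold change was 0.2 ± 0.04 (FDR = 0.03501), or 1.15-fold. Without blank heart 34 the FDR was 0.1168. The call was also lost with limma on log2 FPKM (FDR = 0.316 and 0.308 with the 2 pseudocounts), without the PLCβ1a hearts (0.132) and without the PLCβ1b hearts (0.111). Cacna1c was the only called gene among 51 tested genes of calcium handling (24 higher, 27 lower, median log2 fold change -0.007) and among 60 voltage-gated channel genes (36 higher, 24 lower, median 0.024, from 0.014 without blank heart 33 to 0.041 without blank heart 32), beside a median of -0.002 over all genes. This locus overlaps Dcp1b on the opposite strand, and the authors' counting used strand.

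Of 2 called genes known to act on the actin cytoskeleton, 1 rose and 1 fell. Arhgap18 (chr10:26772512-26918648, + strand), which acts on actin fibres and cell shape, ranged from 10.5 to 13.2 CPM in blank hearts (median 12.1) and from 13.2 to 17.7 in PLC hearts (median 14.7). All 12 PLC hearts were above the highest blank heart by a narrow margin. Its log2 fold change was 0.36 ± 0.07 (FDR = 0.03501), and the call was lost without blank heart 34 or blank heart 36, with an FDR of at most 0.1457. Mcf2l (chr8:12915893-13020509, + strand), a signalling protein that acts on the cytoskeleton, ran from 30.4 to 38.7 CPM in blank hearts (median 32.5) and from 19.1 to 31.8 in PLC hearts (median 25.6). Of the PLC hearts 11 lay below every blank heart. Mcf2l fell by 0.41 on the log2 scale (SE 0.08, FDR = 0.02886) and was called with any 1 heart left out, but not without the PLCβ1a hearts (FDR = 0.132).

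A further 6 called genes, on none of the function lists, are described 1 by 1 and form no group result. Their roles were read after they were called, and such roles were not counted among the genes tested. Frmd4a, a FERM-domain scaffold of cell polarity, was 9.48 to 11.80 CPM in blank hearts (median 10.6) and 11.83 to 14.55 in PLC hearts (median 13.05), without overlap. Eml5, of a family of microtubule-binding proteins, and Myo5c, an unconventional myosin that moves vesicles, had log2 fold changes of 0.41 ± 0.09 and 0.38 ± 0.08. Bcar3, an adaptor of the integrin-linked Cas proteins, was 2.09 to 2.94 CPM in blank hearts and 2.89 to 3.95 in PLC hearts, a log2 fold change of 0.45 ± 0.1. The protocadherin Pcdh17 was higher by 0.34 ± 0.08. Tubb4b, a β-tubulin that forms microtubules, fell by 0.3 on the log2 scale (SE 0.07), and 1 PLC heart lay above its blank mean. The FDRs of these 6 genes ranged from 0.06603 for Frmd4a and Eml5 to 0.09315 for Pcdh17, and each call was lost when at least 1 single heart was left out. Pcdh17 was called in 4 of the 18 fits with a heart left out, Myo5c, Bcar3 and Tubb4b in 8, and Frmd4a and Eml5 in 13.

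Transcription factors that pattern the heart rose in 2 cases. Irx3 (chr8:91798511-91801654, - strand), which acts in the fast-conducting Purkinje system, was 3.41 to 4.86 CPM in blank hearts (median 3.90) and 4.48 to 6.73 in PLC hearts (median 5.59). All but 2 PLC hearts were above every blank heart, and the log2 fold change was 0.47 ± 0.09 (FDR = 0.04594), lost without blank heart 30 or 36 (FDR at most 0.1524). Prox1 (chr1:190121777-190170680, - strand), a regulator of lymphatic endothelium that cardiomyocytes also express, was 20.2 to 27.6 CPM in blank hearts (median 22.9) and 24.4 to 29.7 in PLC hearts (median 27.6). The groups overlapped, since 6 of the 12 PLC hearts lay below the highest blank heart. Its log2 fold change was 0.26 ± 0.06 (FDR = 0.06603), and the call held in 11 of 18 fits with a heart left out. Of 41 tested cardiac transcription factors, 31 were higher and 10 lower, with a median log2 fold change of 0.068 (0.056 with the trend on exon length removed). Their mean level was above that of every blank heart in 10 of the 12 PLC hearts. At an unadjusted p under 0.05, 9 were higher and 2 lower (26.83%, beside 9.38% over all genes).

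Chromatin proteins were called in both directions. Chd6 (chr2:160946978-161109056, - strand), a helicase that moves nucleosomes, ran from 51.3 to 58.3 CPM in blank hearts (median 55.1) and from 39.9 to 50.6 in PLC hearts (median 48.8). No PLC heart overlapped a blank heart. Chd6 fell by 0.22 on the log2 scale (SE 0.04, FDR = 0.02024), by 0.14 with PLCβ1a and by 0.31 with PLCβ1b. It was called with any 1 heart left out, but not by limma on log2 FPKM (FDR = 0.166 and 0.179 with the 2 pseudocounts) or without the PLCβ1b hearts (FDR = 0.312). Cecr2, a bromodomain protein of nucleosome-remodelling complexes, was higher by 0.35 ± 0.08 (FDR = 0.0883), and it was called in 6 of the 18 fits with a heart left out. With all PLC hearts fitted as 1 group Cecr2 was not called (FDR = 0.105). Of 61 chromatin remodelling genes tested, 48 were higher and 13 lower, with a median of 0.04 (0.02 with the trend on exon length removed, 0.023 without blank heart 34). Their median was 0.069 with PLCβ1a and 0.016 with PLCβ1b, and the 5 PLC hearts whose mean level over the list was above every blank heart were all PLCβ1a hearts. At an unadjusted p under 0.05, 9 genes of the list were higher and 2 lower (18.03%, beside 9.38% over all genes). Zfp827, a zinc finger protein, rose by 0.28 ± 0.06 (FDR = 0.07659, 10 of 18 fits), while the 311 tested Zfp genes were split 159 higher to 152 lower with a median of 0.004.

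Cish had the lowest p after Plcb1. It encodes a member of the SOCS family, which STAT5 induces after growth hormone, prolactin and related cytokines and which then dampens those receptors. At chr9:107296689-107301961 (+ strand), Cish lay between 15.8 and 23.7 CPM in blank hearts (median 20.9) and between 9.64 and 16.8 in PLC hearts (median 13.1). All but 1 of the PLC hearts, PLCβ1b heart 4, were below every blank heart. Cish fell by 0.66 on the log2 scale (SE 0.08, FDR = 1.67e-05), by 0.84 with PLCβ1a and by 0.48 with PLCβ1b. The difference between the vectors was 0.36 ± 0.09, with an FDR of 0.8576 over all genes. Cish was called with any 1 heart left out, and it was the only called gene of 46 tested in JAK-STAT signalling and its feedback, which were split 23 higher to 23 lower (median 0.002). Of these 46, 6 were lower at an unadjusted p under 0.05 and 0 higher (13.04%, beside 9.38% over all genes).

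The promoter of Cish is shown because Cish is a textbook STAT5 target. Capitals mark matches to TTCNNNGAA, the palindrome that STAT dimers bind, searched on both strands. The window covers 250 bases before to 50 after the start site in RefSeq (GRCm38.p6, chr9:107296409-107296708, + strand).
Cish promoter: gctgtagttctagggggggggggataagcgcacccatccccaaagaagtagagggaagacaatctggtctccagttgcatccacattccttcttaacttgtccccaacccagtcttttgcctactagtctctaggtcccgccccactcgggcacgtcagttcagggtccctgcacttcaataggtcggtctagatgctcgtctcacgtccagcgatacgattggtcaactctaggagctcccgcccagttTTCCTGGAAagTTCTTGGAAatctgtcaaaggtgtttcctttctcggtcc
It held 2 matches, which begin at bases 1 and 12 counted from the RefSeq start site. In the deposited annotation Cish starts at base 107296689, past both matches. Of 32851 promoters of this length, 8.3% held at least 1 match and 0.457% at least 2. Promoters were found for 22 of the 24 called genes, and 5 of these 22 held a match (2810055G20Rik, Cacna1c, Cish, Mcf2l and Plcb1). The motif was chosen for Cish with the called genes known, so these shares are descriptions. In the JAK-STAT list it was 5 of 37.

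Zbtb16 fell with both vectors. It encodes the transcription factor PLZF and is a known glucocorticoid-induced gene. From chr9:48654297-48835945 (- strand) its level was 43.0 to 81.5 CPM in blank hearts (median 52.9) and 29.2 to 42.8 in PLC hearts (median 38.0), so every PLC heart was below every blank heart. Zbtb16 fell by 0.59 on the log2 scale (SE 0.1, FDR = 0.006349). Blank heart 30 was its highest value, and with any 1 heart left out the log2 fold change lay between -0.65 and -0.45 and the call held. Without the PLCβ1b hearts Zbtb16 was not called (FDR = 0.122). Of 28 tested glucocorticoid-response genes 8 were higher and 20 lower (median -0.077, and -0.118 without PLCβ1b heart 8). Zbtb16 alone was called in edgeR's quasi-likelihood test, while DESeq2 and edgeR's exact test called 3 each. At an unadjusted p under 0.05 there were 7 lower and 1 higher.

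Herpud1 was the called gene of the unfolded protein response. Its product sits in the endoplasmic reticulum and helps pass misfolded proteins to degradation. The gene, at chr8:94386500-94395358 (+ strand), ranged from 71.4 to 86.4 CPM in blank hearts (median 73.9) and from 55.8 to 71.8 in PLC hearts (median 66.3), with 11 of 12 PLC hearts below every blank heart. Herpud1 fell by 0.22 on the log2 scale (SE 0.05, FDR = 0.07708), and the call held in 10 of 18 fits with a heart left out. Without blank heart 30 it fell by 0.18 (FDR = 0.2104). Of 37 tested genes of this response 8 were higher and 29 lower, with a median of -0.051. Blank heart 30 had a mean level over the list 0.29 above the blank mean, and without it the median was 0.019. Of 33 heat shock genes 9 were higher and 24 lower (median -0.033, and -0.071 without blank heart 33), and 0 were called in edgeR, DESeq2 or edgeR's exact test. At an unadjusted p under 0.05 there were 4, all lower (12.12%, beside 9.38% over all genes).

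Herpud1's promoter carries a known element of that response, so it is given here (RefSeq, GRCm38.p6, chr8:94386179-94386478, + strand, the same window). Capitals mark a match to the element called ERSE-II, ATTGG and CCACG with 1 base between, searched on both strands.
Herpud1 promoter: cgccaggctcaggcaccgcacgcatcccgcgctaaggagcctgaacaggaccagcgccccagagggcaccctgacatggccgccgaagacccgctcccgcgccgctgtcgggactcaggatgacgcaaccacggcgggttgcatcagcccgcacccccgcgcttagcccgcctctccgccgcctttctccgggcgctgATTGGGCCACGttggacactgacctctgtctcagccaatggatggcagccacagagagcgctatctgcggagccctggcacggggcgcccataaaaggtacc
This motif too was chosen with the called genes known. The match began 52 bases before the RefSeq start site. In the deposited annotation Herpud1 starts at base 94386500, past the end of this window. Of the 32851 promoters 0.0365% held a match. In the list of the unfolded protein response 2 of 31 promoters did, those of Herpud1 and Dnajb11. The other element of this response, ERSE, with CCAAT and CCACG 9 bases apart, was in 8 of the 31 and in 0.119% of all promoters.

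Matrix and secreted genes gave 1 call in edgeR's quasi-likelihood test, opposite to most of their list, while DESeq2 called 2 and edgeR's exact test 3. Timp4 (chr6:115245616-115251849, - strand), an inhibitor of matrix metalloproteinases that is most abundant in heart, was 8.79 to 14.4 CPM in blank hearts (median 11.5) and 6.69 to 10.4 in PLC hearts (median 8.52). The ranges overlapped, with 7 PLC hearts below every blank heart and 12 below the blank mean. It fell by 0.42 on the log2 scale (SE 0.09, FDR = 0.07854), and was called in 7 of 18 fits with a heart left out. Of 54 tested matrix and fibrosis genes 43 were higher and 11 lower, with a median of 0.07 (0.058 with the trend on exon length removed). At an unadjusted p under 0.05, 13 were higher and 2 lower (27.78%, beside 9.38% over all genes). The fibroblast collagen-binding proteoglycan Lum had the lowest p of the fibroblast markers, with a log2 fold change of 0.23 ± 0.06 (FDR = 0.1485), not called in edgeR's quasi-likelihood test and called in 5 of 14 alternatives.

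Genes of protein synthesis leaned lower as lists while few members passed. Mrpl18 (chr17:12911355-12916091, - strand), of the large subunit of the mitochondrial ribosome, was 33.8 to 36.4 CPM in blank hearts (median 35.0) and 26.9 to 34.3 in PLC hearts (median 30.7), and 11 of 12 PLC hearts lay below every blank heart. It fell by 0.19 on the log2 scale (SE 0.04, FDR = 0.07307, 10 of 18 fits with a heart left out). With the trend on exon length removed Mrpl18 was not called (FDR = 0.109). Of 75 tested mitochondrial ribosome genes 13 were higher and 62 lower, with a median of -0.079 (-0.059 with that trend removed). At an unadjusted p under 0.05, 19 were lower and 0 higher. The mean level of the list in 10 of 12 PLC hearts lay below that of every blank heart. Cytosolic ribosome genes were 20 higher and 47 lower of 67 (median -0.087, and -0.057 with the trend on exon length removed), and nuclear genes of oxidative phosphorylation 18 higher and 63 lower of 81 (median -0.033, and -0.004 with that trend removed). In both lists 0 genes were called by edgeR, DESeq2 or edgeR's exact test. At an unadjusted p under 0.05 there were 12 and 10, all lower (17.91% and 12.35%, beside 9.38% over all genes). Genes of the mitochondrial genome went the other way, 9 of 11 higher with a median of 0.132 (0.066 with PLCβ1a and 0.217 with PLCβ1b). The pooled median was 0.059 without PLCβ1a heart 7 and 0.194 without blank heart 30. The lowest p among these 11 genes was that of mt-Cytb, 0.15 ± 0.06 (FDR = 0.377), and 0 were called by the same tools, against 3 at an unadjusted p under 0.05.

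**Figure D2:**
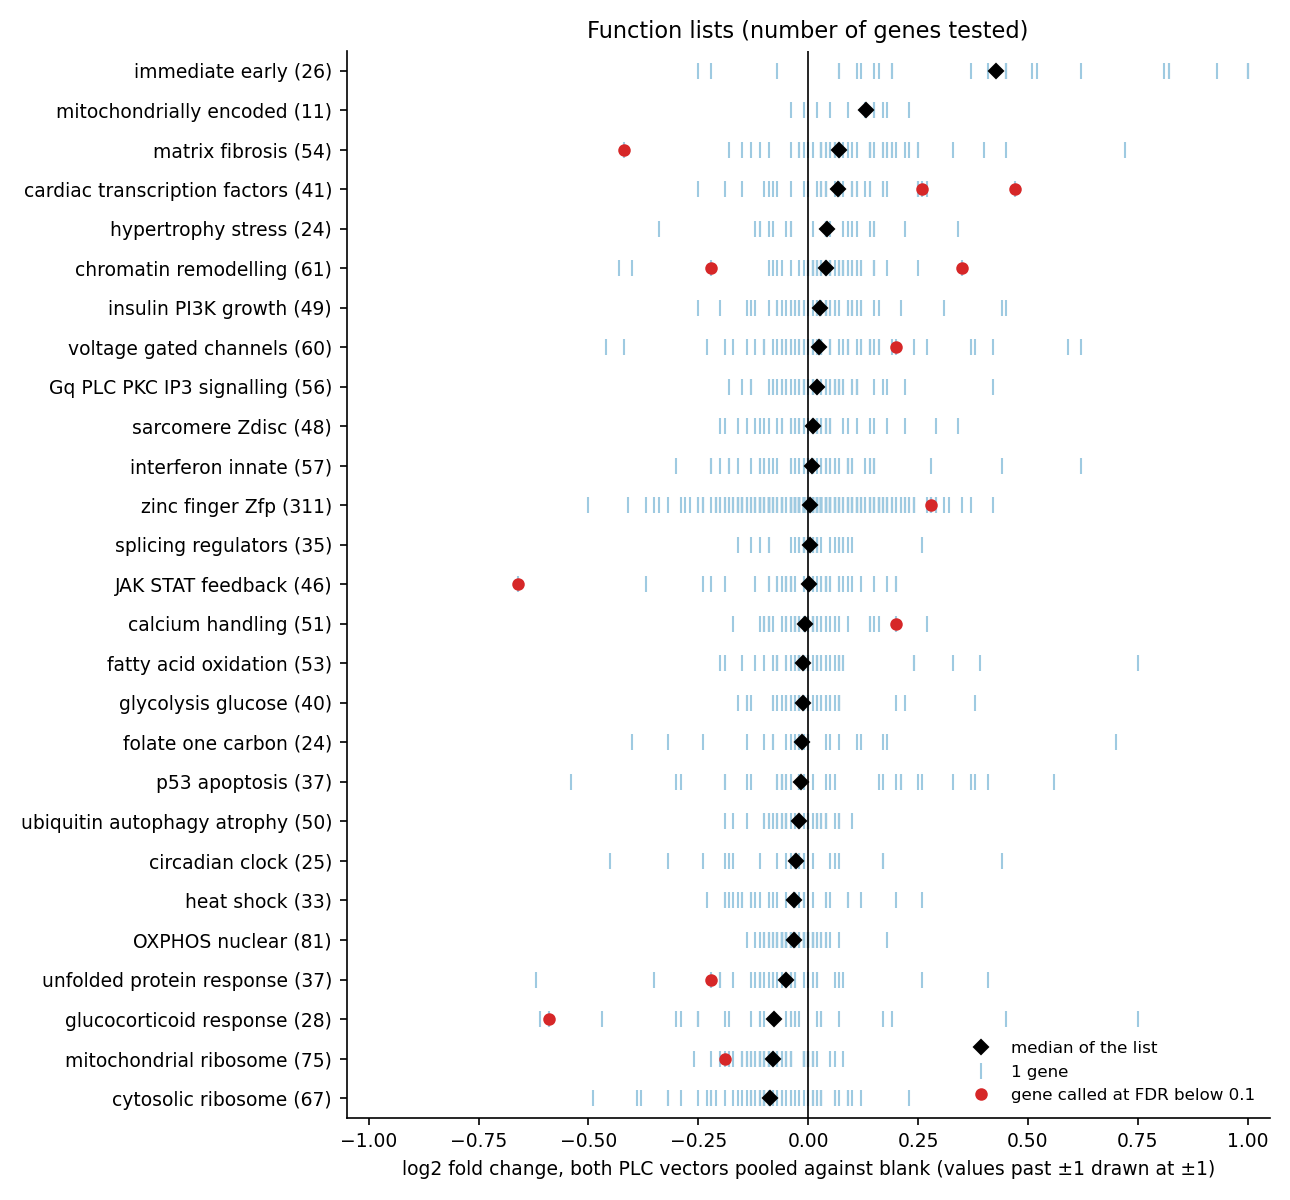
Log2 fold change of each tested gene in lists by function (1 tick a gene), PLC vectors pooled against blank, with the list's median (diamond) and the called genes (red). Medians lie between -0.087 and 0.132 in all lists drawn but the immediate early genes, at 0.428, and no list holds more than 2 called genes.

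List medians also moved with single hearts. They changed sign for endocardial (0.034 without blank heart 34), lymphocyte (-0.065 without PLCβ1a heart 7) and mesothelial markers (-0.034 without blank heart 33), calcium handling (0.003 without PLCβ1b heart 8), sarcomere genes (-0.005 without blank heart 33), JAK-STAT genes (-0.013 without PLCβ1a heart 9), interferon genes (-0.013 without PLCβ1a heart 13), fatty acid oxidation (0.013 without blank heart 36), glycolysis (0.003 without blank heart 33), Zfp genes (-0.003 without PLCβ1a heart 21), p53 genes (0.001 without blank heart 30) and folate genes (0.006 without blank heart 36). Cardiomyocyte and endothelial markers were both at -0.01, without blank hearts 33 and 36.

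The immediate early genes had the highest median of the function lists, 0.428 over 26 tested genes, 23 higher and 3 lower. These transcription factors and signalling genes switch on within minutes of a stimulus, handling of the tissue included. Of the 26, 0 were called by edgeR's quasi-likelihood test or DESeq2 and 1 by edgeR's exact test, while 12 were higher and 2 lower at an unadjusted p under 0.05. Egr2, with the lowest p, was 0.224 to 0.750 CPM in blank hearts (median 0.477) and 0.385 to 10.4 in PLC hearts (median 0.971), a log2 fold change of 2.27 ± 0.79 (FDR = 0.3444). Of the 12 PLC hearts 8 were above every blank heart, and with any 1 heart left out the log2 fold change lay between 1.48 and 2.42. Much of its size came from PLCβ1a heart 7 and PLCβ1b heart 16, at 10.4 and 8.54 CPM. No other PLC heart exceeded 1.44. The mean level of the list was between -0.34 and 0.28 in blank hearts, relative to their mean, and between -0.05 and 1.39 in PLC hearts, 6 of which were above every blank heart. Without PLCβ1a heart 7 the median over the list was 0.26.

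A long noncoding RNA and a gene that holds a microRNA were among the called genes that fit no list. 2810055G20Rik (chr16:77329328-77558428, + strand), which RefSeq names Mir99ahg at the same start and end, lay between 5.43 and 7.34 CPM in blank hearts (median 7.26) and between 7.42 and 10.97 in PLC hearts (median 8.83). No PLC heart overlapped a blank heart. Its log2 fold change was 0.4 ± 0.08 (FDR = 0.04594), and without blank heart 30, its lowest value, or blank heart 36 it was not called (FDR at most 0.1524). Tmem245 (chr4:56876013-56947429, - strand), a membrane protein, was 49.2 to 57.9 CPM in blank hearts (median 52.3) and 55.9 to 63.3 in PLC hearts (median 60.3), with 10 PLC hearts above every blank heart. Tmem245 rose by 0.19 ± 0.04 (FDR = 0.03501, and 0.1374 without blank heart 30).

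The microRNAs at or near these loci are given because the genes differed, although 3 of the 4 lie outside the counted 2810055G20Rik. Capitals mark the seed, bases 2 to 8, and the sequences are from RefSeq (GRCm38.p6). The mature microRNAs were not measured.
miR-99a-5p: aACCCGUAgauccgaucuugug
let-7c-5p: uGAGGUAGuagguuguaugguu
miR-125b-5p: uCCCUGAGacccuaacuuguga
miR-32-5p: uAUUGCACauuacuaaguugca
The 4 share no seed. The first 3 lie on the + strand of chromosome 16, beginning 40.5, 41.2 and 87.9 kb past the end of 2810055G20Rik in the deposited annotation and within the longer Mir99ahg of GENCODE M21. miR-32-5p lies inside Tmem245 on its strand. The hairpins' own rows held at most 13 counts in any heart and none was tested.

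The remaining 2 calls were Art4 and Rtn4r. Art4, an ADP-ribosyltransferase that carries the Dombrock blood group, rose by 0.33 ± 0.07 (FDR = 0.0883), with 5.14 to 6.96 CPM in blank hearts and 6.43 to 8.545 in PLC hearts. Rtn4r, the receptor through which myelin proteins restrain axon growth, fell by 0.7 on the log2 scale (SE 0.16, FDR = 0.09315) at a low level, 1.64 to 3.74 CPM in blank hearts and 0.870 to 1.999 in PLC hearts. The groups overlapped in both genes, with 9 PLC hearts beyond the blank range. Art4 was called in 5 and Rtn4r in 6 of the 18 fits with a heart left out. Just past the threshold lay Scin (0.75 ± 0.17, FDR = 0.1037) and Xdh (-0.27 ± 0.06, FDR = 0.1037), named after their values were seen. Baiap2, also named after its values were seen, was the 1 gene of the 8 without overlap that was not called (FDR = 0.1239).

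The vectors were also compared with blank one at a time, with the same 6 blank hearts in both. With PLCβ1a 10 genes were called (0.0814%) and with PLCβ1b 12 (0.0977%). Of the 24 genes of the pooled comparison, 8 were also called with PLCβ1a and 9 with PLCβ1b. Plcb1, Cish and Zbtb16 were called with both and 10 genes with neither alone. When the PLCβ1b hearts were left out of the fit, Zbtb16 was not called with PLCβ1a (FDR = 0.122). The log2 fold changes of Cacna1c were 0.22 ± 0.04 and 0.18 ± 0.04, those of Arhgap18 0.34 ± 0.08 and 0.38 ± 0.08, and those of Timp4 -0.42 ± 0.11 in both. Less alike were Pcdh17 (0.23 ± 0.09 and 0.46 ± 0.09), Myo5c (0.47 ± 0.09 and 0.29 ± 0.1) and Cecr2 (0.43 ± 0.09 and 0.26 ± 0.09). The comparison of PLCβ1b with PLCβ1a does not take the blank hearts as a reference, though they share its filter, scaling and estimate of spread. It called none of the 23 other genes in edgeR's quasi-likelihood test, and over all genes 560 had an unadjusted p under 0.05. Among the 24 this p was under 0.05 in Plcb1, Pcdh17, Cish and Chd6. A difference that misses the threshold is not shown to be absent.

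**Figure D3:**
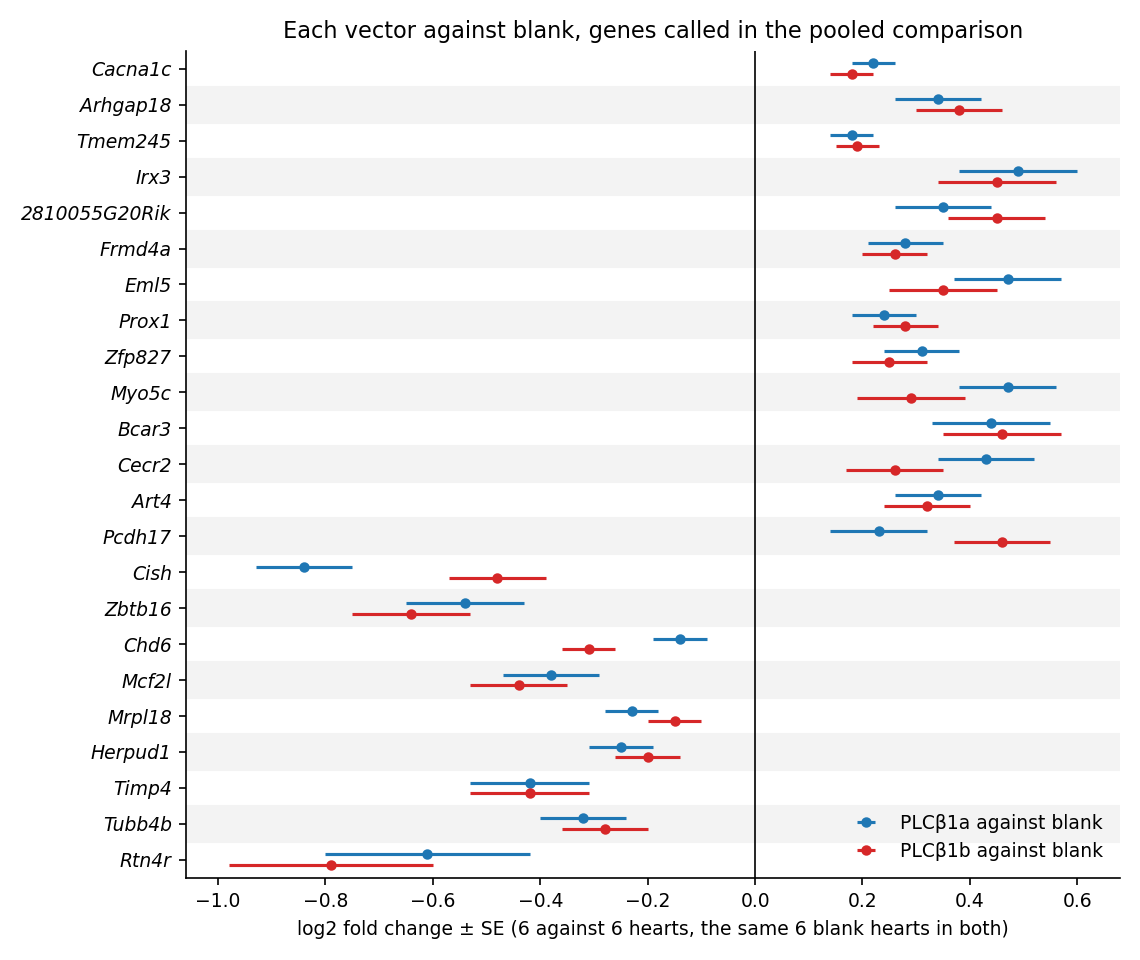
Log2 fold change ± SE of PLCβ1a (blue) and PLCβ1b (red) against blank for the 23 called genes other than Plcb1. Cish was further from blank with PLCβ1a (-0.84 against -0.48) and Chd6 with PLCβ1b (-0.31 against -0.14).

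Cell type markers were read for the likely source of these differences. In bulk RNA, fewer cells of a type and less RNA per cell cannot be told apart. Over 14 lists, 122 markers were tested, of which 1 was called, Prox1 on the lymphatic endothelial list, while 19 had an unadjusted p under 0.05. DESeq2 and edgeR's exact test called 2 each. The 20 cardiomyocyte markers summed to 59800 to 64680 CPM in blank hearts and 59670 to 65490 in PLC hearts, a ratio of the means of 1.004, with Ttn making up 54.6% of the sum. All ranges of the larger lists' sums overlapped. The ratio was 1.0 for 18 endothelial markers, 1.03 for 18 fibroblast markers, 1.02 for 13 pericyte and smooth muscle markers, 0.958 for 14 macrophage markers and 1.049 for 6 lymphatic endothelial markers, of which Prox1 made up 42.9%. That list was 4 higher and 2 lower, with a median log2 fold change of 0.052 (0.018 without blank heart 30). Beside Prox1, the higher members were Mmrn1 (0.08), Pdpn (0.03) and Reln (0.09). Lyve1, named with Flt4 after their values were seen, was lower, with a log2 fold change of -0.25 (unadjusted p = 0.02014, not called), and Flt4 was at -0.03. Ccl21a was listed at 0 counts in every heart, which does not show that its transcript was absent. For 5 endocardial, 4 neuronal and 6 mesothelial markers the ratios were 0.962, 1.003 and 1.022.

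The directions of markers differed by list. Macrophage markers were lower in 11 of 14 (median -0.099), C1qa having the lowest p, -0.16 ± 0.07 (FDR = 0.5126). Fibroblast markers were higher in 12 of 18 (median 0.073), and their mean level was above every blank heart in 8 of 12 PLC hearts, while Gsn made up 36.75% of their sum. Cardiomyocyte markers were split 11 higher to 9 lower (median 0.006), and endothelial markers 11 to 7 (median 0.017, and 0.007 with the trend on exon length removed). Of the 18 endothelial markers 6 had an unadjusted p under 0.05 (33.33%, beside 9.38% over all genes). Of these, 3 were higher (Cdh5, Cldn5 and Ets1) and 3 lower (Eng, Flt1 and Ly6c1). Atrial markers, with Nppa the most abundant, were lower in 7 of 8 and summed to 55.5 to 69.7 CPM in blank hearts and 37.4 to 82.1 in PLC hearts. Their median log2 fold change was -0.115 pooled, 0.014 with PLCβ1a and -0.202 with PLCβ1b, so the vectors did not share this direction. All 4 tested proliferation markers were higher (median 0.269), Ccna2 having the lowest p, 0.64 ± 0.23 (FDR = 0.3621), whereas Cdk1, Ccnb1 and 4 others were too low to test. None of the markers in these lists was called by edgeR's quasi-likelihood test, and DESeq2 and edgeR's exact test each called 1 fibroblast marker.

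Other cell types had few testable markers. Of the erythrocyte list only Alas2 and Slc4a1 were tested, and they summed to 5.66 to 11.7 CPM in blank hearts and 6.58 to 18.7 in PLC hearts, a ratio of 1.38. Alas2 held 70 to 386 counts per heart, and its log2 fold change was 0.42 ± 0.14 (unadjusted p = 0.007035, FDR = 0.3349). By vector it was 0.63 ± 0.16 with PLCβ1a and 0.22 ± 0.17 with PLCβ1b. The haemoglobin genes Hba-a1, Hba-a2, Hbb-b1 and Hbb-b2 were listed at 0 in every heart, which does not show that their transcripts were absent. Adipocyte markers Adipoq, Plin1 and 4 others were too low to test, and the 2 tested summed to 0.639 to 2.20 CPM in blank hearts and 0.564 to 6.83 in PLC hearts. The part of these cells in the called genes was not tested.

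**Figure D4:**
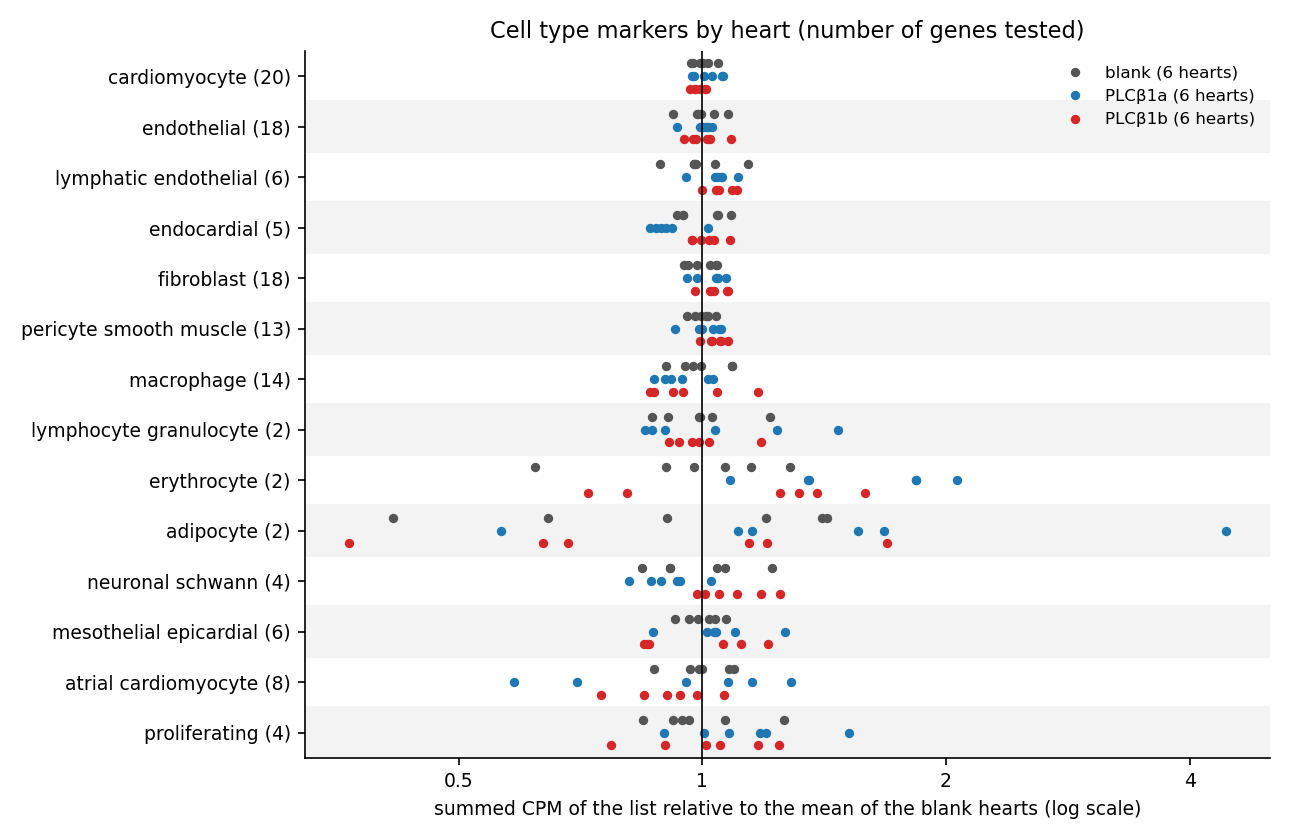
Summed CPM of the tested markers of each cell type in each heart, divided by the mean of the 6 blank hearts, on a log scale (blank grey, PLCβ1a blue, PLCβ1b red). The large cardiomyocyte, endothelial, fibroblast and mural lists lie close to 1 in all groups, and the erythrocyte and adipocyte lists, with 2 genes each, spread widest.

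Heart-to-heart variation of called genes was set against that of the markers. For each of the 24 genes and 9 marker lists with at least 5 tested markers, log2 CPM and the mean marker level were correlated over the 18 hearts after group means were removed. Of these 216 pairs, 0 had an adjusted p under 0.05 by Pearson or by Spearman in permutation tests, and 12 had an unadjusted Pearson p under 0.05. Prox1 and the pericyte and smooth muscle markers were the strongest pair (r = 0.773, permutation p = 0.00055, adjusted p = 0.119, Spearman coefficient 0.767, permutation p = 0.00148, adjusted p = 0.176). Without the 2 hearts farthest from the median marker level r was 0.617 (permutation p = 0.0329, adjusted p = 0.689). With 18 hearts, pairs that miss the threshold are not shown to be unrelated.

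Most pathways close to PLC and to contraction held no called gene beyond Plcb1, which is not counted in its list. Of 56 tested genes of Gq, PLC, PKC and IP3 signalling 35 were higher and 21 lower (median 0.021, from 0.013 without PLCβ1a heart 7 to 0.042 without blank heart 34, and 0.013 with the trend on exon length removed). Rgs2, which shortens Gq signals, had the lowest p with 0.42 ± 0.12 (FDR = 0.1978). Sarcomere and Z-disc genes were 28 higher and 20 lower of 48 (median 0.011), led by Myom2 with 0.29 ± 0.08 (FDR = 0.219). Hypertrophy and stress markers were 15 higher and 9 lower of 24 (median 0.043, and 0.024 without blank heart 32). None of these 3 lists held a gene called by edgeR's quasi-likelihood test or DESeq2, and edgeR's exact test called 1 in the signalling list. At an unadjusted p under 0.05 they had 5, 5 and 2 genes (8.929%, 10.42% and 8.333%, beside 9.38% over all genes).

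Metabolic and growth genes gave no call in edgeR's quasi-likelihood test. Fatty acid oxidation genes were split 25 higher to 28 lower of 53 (median -0.011) and glycolysis genes 18 to 22 of 40 (median -0.012). At an unadjusted p under 0.05 they had 6 and 1 (11.32% and 2.5%, beside 9.38% over all genes), and 0 were called by DESeq2 or the exact test. Insulin and PI3K genes were 31 higher and 18 lower of 49 (median 0.027, 6 or 12.24% at an unadjusted p under 0.05), and DESeq2 and the exact test called 1. There Pik3r1, the regulatory subunit of PI3K, had the lowest p with -0.2 ± 0.05 (FDR = 0.1239), and blank heart 30 was its highest value. Folate and 1-carbon genes were 9 higher and 15 lower of 24 (median -0.014), with Aldh1l1 at 0.7 ± 0.18 (FDR = 0.1561), the 1 gene at an unadjusted p under 0.05 and the 1 called by DESeq2.

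Lists of stress, clock and RNA processing genes held none called by edgeR's quasi-likelihood test, DESeq2 or the exact test. Interferon and innate genes were 34 higher and 23 lower of 57 (median 0.009), p53 and apoptosis genes 16 and 21 of 37 (median -0.017, while the mean level over the list was above every blank heart in 7 of 12 PLC hearts), and ubiquitin and autophagy genes 19 and 31 of 50 (median -0.021, and -0.011 without blank heart 30). The mean level of the ubiquitin list was below every blank heart in 8 of 12 PLC hearts. Clock genes were 7 higher and 18 lower of 25 (median -0.028, from -0.074 without blank heart 26 to 0.008 without blank heart 36) and splicing regulators 20 and 15 of 35 (median 0.004). At an unadjusted p under 0.05 these 5 lists had 4, 10, 3, 1 and 4 genes (7.018%, 27.03%, 6.0%, 4.0% and 11.43%, beside 9.38% over all genes). Gadd45b, which p53 and stress kinases induce, had the lowest p of its list with -0.54 ± 0.16 (FDR = 0.2696).

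Gene length moved with the groups. The called genes that rose had a median exon length of 6.895 kb and those that fell 1.874 kb, beside 2.985 kb over all genes tested. With genes cut into 5 equal groups from shortest to longest exons, the median pooled log2 fold change went from -0.029 through -0.012, 0.0 and 0.008 to 0.02. Per heart, a slope on each doubling of exon length was taken for log2 CPM relative to each gene's mean over the 18 hearts. A slope of 0 thus means the same length dependence as the average heart, not none. Slopes were -0.0281 to 0.00422 in blank hearts and -0.013 to 0.0241 in PLC hearts (exact permutation test, two-sided, p = 0.0231), and the ranges overlapped. Blank hearts 34 and 36 were the lowest. The mean slope was 0.0113 with PLCβ1a, -0.000356 with PLCβ1b and -0.011 in blank hearts. PLCβ1a hearts 7, 9, 11, 13 and 14, those above every blank heart in the chromatin list, lay between 0.00852 and 0.0241. Among hearts not above blank in that list, PLCβ1a heart 21 was at -0.013 and PLCβ1b heart 10 at 0.0137. The chromatin list is of long genes, with a median exon length of 7281 bases. The ribosomal and oxidative phosphorylation lists are of short genes, and with the trend removed their medians were -0.059 (mitochondrial ribosome), -0.057 (cytosolic ribosome) and -0.004 (oxidative phosphorylation). Small medians changed sign with the trend removed for cardiomyocyte markers (-0.001), JAK-STAT genes (-0.012), fatty acid oxidation (0.006), glycolysis (0.001), Zfp genes (-0.006) and splicing regulators (-0.004). Of other lists, hypertrophy markers went from 0.043 to 0.02 and voltage-gated channels from 0.024 to 0.008, whereas clock genes went from -0.028 to -0.043 and endocardial markers from -0.104 to -0.124 (0.034 without blank heart 34).

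With the trend removed 13 genes were called, of which 10 were among the 24 (2810055G20Rik, Arhgap18, Cacna1c, Chd6, Cish, Irx3, Mcf2l, Plcb1, Prox1 and Zbtb16). The other 14 kept their direction and lay just past the threshold, with FDRs from 0.101 (Art4) to 0.129 (Pcdh17). All 24 kept their direction in every alternative that tested them, and Plcb1, Cish, Zbtb16, Chd6 and Mcf2l were called with any 1 heart left out.

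**Figure D5:**
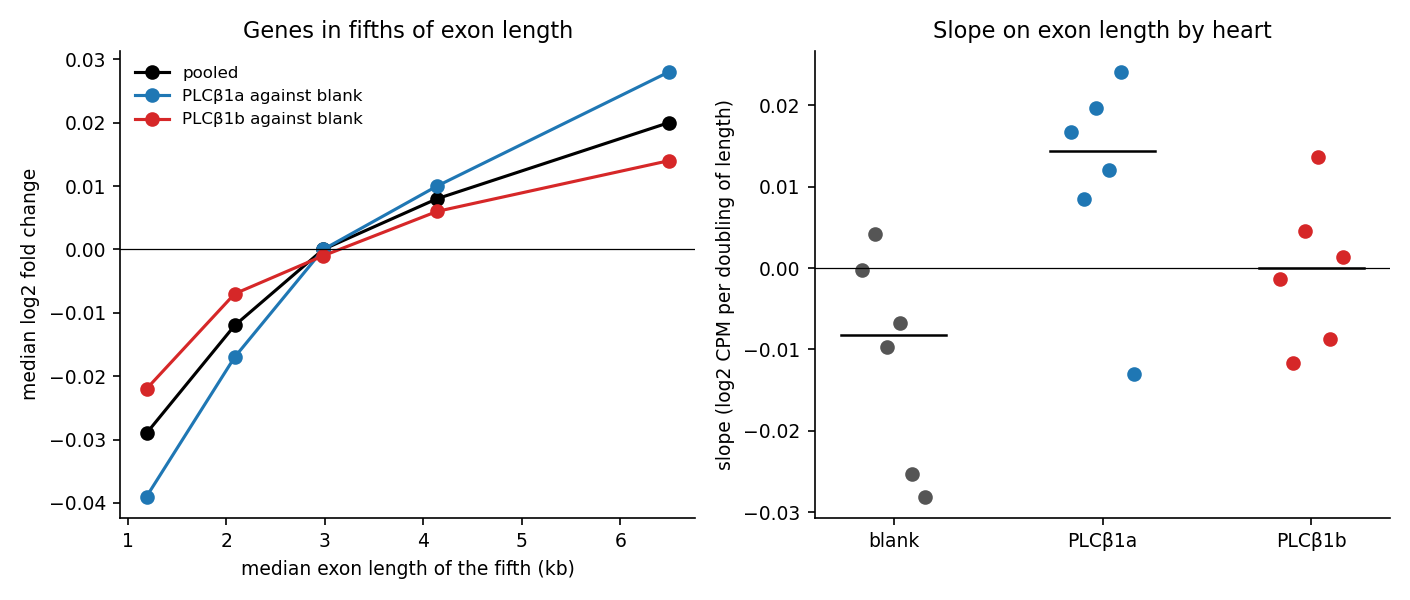
Median log2 fold change in 5 equal groups of genes by exon length, for both vectors pooled (black) and for each vector (left). On the right is the slope on exon length in each heart, with bars at the group medians. The slope is that of log2 CPM relative to each gene's mean over the 18 hearts. Medians rise with length from -0.029 to 0.02 in the pooled comparison, and the slopes of PLC and blank hearts overlap.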

How the data were processed

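RNA of 18 hearts was sequenced after ribosomal RNA depletion, 6 hearts for each vector. The deposited counts per gene were made by the authors with TopHat2 2.0.10, Bowtie2 and HTSeq (union mode, by strand) on mm10. The deposited FPKM values were normalized by the authors for transcript length and depth, with Cufflinks 2.1 listed among the tools. Counts were used for all main results and FPKM for alternatives.

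Genes were kept with filterByExpr (minimum count 10, minimum total 15, smallest group 6), scaled by TMM and fitted in 1 model of 3 groups with edgeR 4.0.16 (quasi-likelihood F test, R 4.3.3). The mean of both PLC groups was tested against blank, and Benjamini-Hochberg adjustment covered all 12281 genes, called at an FDR below 0.1. The median biological coefficient of variation was 0.0662. Totals of 13246339 to 24155465 counts, of which 3908354 to 7591558 were nuclear, set the precision.

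Named with values are the called genes, genes of lowest p in a list (not for every list), and genes said to be named after their values were seen. Members of the comparison and the gene lists were chosen with earlier results of these data known. Marker levels are summed CPM. List levels are mean log2 CPM relative to the blank mean. Correlations used 100000 permutations after removal of group means, and exact tests used all 18564 arrangements of the hearts. Alternatives used DESeq2 1.42.0, limma 3.58.1 and sva 3.50.0, and robust edgeR settings and the alternatives for each vector alone were chosen after seeing the data. The tests and correlations were tested on simulated data. Tables and figures used Python 3.11.15 with pandas 2.3.3, scipy 1.17.1 and matplotlib 3.10.9. Among the count rows, 27 gene names turned into dates (0.0442% of counts) were left unmatched.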

Additional observations from a re-analysis of the deposited data

Results flagged for a closer look

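In 21 of 204 groups of 6 hearts (10.29%), 1 heart lay far from the other 5, where chance gives about 1 in 20 groups. Blank heart 30 accounted for 7 of them: 2810055G20Rik at 5.425 CPM (others 6.832 to 7.34), Zbtb16 at 81.48 (42.97 to 56.31), Herpud1 at 86.39 (71.44 to 76.92), Ets1 at 41.78 (32.66 to 35.18), Ptprc at 7.791 (4.93 to 5.887), Ccna2 at 1.096 (0.3935 to 0.5352) and Pik3r1 at 125.6 (95.47 to 104.0). Among the other blank hearts, heart 26 was high in Zfp827 (11.8, others 9.304 to 10.02) and Ctgf (24.87, others 20.87 to 21.89), and heart 33 in Rtn4r (3.738, others 1.643 to 2.366).

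PLCβ1a heart 21 was high in Car3 (4.618, others 0.3062 to 1.738) and in summed adipocyte markers (6.825), of which Car3 is 1 of 2, and low in Gbp2 (5.132) and summed endothelial markers (723.8). PLCβ1a heart 7 was high in Egr2 (10.44, others 0.385 to 1.439) and low in Nr1d1 (19.5), heart 14 was high in Ppara (54.12) and heart 11 in summed endocardial markers (30.61). Of the PLCβ1b hearts, heart 4 was high in Cish (16.77, others 13.19 to 14.46), heart 6 in Tubb4b (49.12) and heart 16 in Egr2 (8.539, others 0.3942 to 1.436). No cause was tested.

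Plcb1 differed between the vectors when that difference was tested, by a log2 fold change of 1.09 (PLCβ1b above PLCβ1a, FDR = 0.009185). Robust edgeR settings called 0 genes between the vectors, against 1 by default settings and 1 by DESeq2, with 560 at an unadjusted p under 0.05 by default settings.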

How the results depend on the processing

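Against 24 genes as reported, the pooled comparison called 55 with DESeq2, 68 with edgeR's exact test of 12 against 6, 60 without a filter on low counts, 100 with 1 surrogate variable and 40 with robust edgeR settings. It called 14 among genes of at least 3 FPKM, 13 with the exon length trend removed, 10 at an FDR below 0.05, and 6 each with limma on log2 FPKM (pseudocount 0.1 or 1), without PLCβ1a hearts and without PLCβ1b hearts. DESeq2, the exact test, the surrogate variable and the missing filter each kept all 24, robust settings kept 23 (Tubb4b was lost), and limma kept 4 (Cish, Mcf2l, Plcb1 and Zbtb16). With all PLC hearts fitted as 1 group 23 genes were called, 22 of them among the 24. Cecr2 (FDR = 0.105) and Pcdh17 (FDR = 0.133) were lost there. Of the genes called, 62.5% were higher as reported and 16.67% with limma. With 1 heart left out the count ran from 9 (blank 30) to 55 (PLCβ1b 16), with 10 and 15 without blank 34 and 36, 11 without PLCβ1a 11, and 11, 15 and 13 without PLCβ1b 4, 10 and 17. PLCβ1a against blank gave 10 as reported, 33 with DESeq2, 32 without the filter, 17 with robust settings and 2 at an FDR below 0.05. PLCβ1b against blank gave 12, and 24, 26 and 6 with DESeq2, without the filter and at an FDR below 0.05. PLCβ1b against PLCβ1a gave 1, 2 without the filter or with 1 surrogate variable, 0 with robust settings (560 genes at an unadjusted p under 0.05 as reported, 1 called by DESeq2), and 1 to 2 with 1 heart left out (2 without blank 26, 30 or 32, PLCβ1a 14, or PLCβ1b 8 or 17). Genes without overlap numbered 8 as reported, 5 with upper-quartile scaling and 4 without scaling factors. All 24 genes kept their sign in every alternative with a value. The called genes passed the threshold again in 182 of 254 alternatives and 291 of 432 fits with a heart left out, and the other named genes passed it in 19 of 306 and 6 of 522. No list median changed sign under upper-quartile scaling. With limma on log2 FPKM (pseudocount 0.1), where the median over all genes was -0.02, medians changed sign for cardiomyocyte (-0.016), endothelial (-0.009) and lymphocyte (-0.038) markers and for Gq and PLC (-0.001), sarcomere (-0.004), JAK-STAT (-0.046), interferon (-0.001), Zfp (-0.016) and splicing (-0.019) genes. The cause of these shifts was not tested.

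No paired analysis was possible because the groups share no replicate numbers. Most counts were mitochondrial, which left 3908354 to 7591558 counts per heart for nuclear genes, and genes of few counts, such as the markers of lymphocytes, adipocytes and neurons, were mostly too low to test.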
